A study of Mus musculus with 8 samples.

Results

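The ATP-binding cassette (ABC) transporters of subfamilies A to G were compared between bone marrow (BM) cells, BM-derived hepatocytes and primary hepatocytes. The members were all genes whose probe names begin with Abca to Abcg and a number, which gave 50 genes: 16 of subfamily A, 10 of B, 10 of C, 4 of D, 1 of E, 3 of F and 6 of G. They were read from 87 of 61307 probes on one slide and from 73 of 55681 probes on the other. Only 33 member probes, for 30 of the genes, had the same sequence on both slides, out of 13991 such sequences in all.

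Lin- BM cells were depleted of lineage-positive cells with antibody-coated magnetic beads and came from 6 to 8 week old female eGFP donor mice (C57Bl6/J-Tg(UBCGFP)30Scha/J). They were given to male hemophilia A mice of the same age (the F8tm1Kaz allele on a mixed background) with a liver injury caused by acetaminophen, and eGFP-positive BM-derived hepatocytes were sorted from the perfused livers after 1 month and 5 months. Primary hepatocytes were obtained by the same collagenase perfusion and a low-speed spin, and the genotype of their mice is not given in the sources used here. Each group had 2 arrays of RNA from pooled cells of 3 mice, and some of the donor-derived cells are described in the study as fusion hybrids with host cells. The arrays of Lin- BM cells (replicates 3 and 4) and 1-month hepatocytes (replicates 1 and 2) shared a slide, and the arrays of primary hepatocytes (replicates 2 and 4) and 5-month hepatocytes (replicates 1 and 3) shared the other, which had another array design and scan day. Values below are log2 signals relative to the upper quartile of their array, so that 0 marks the upper quartile, and they are given in the order of the replicates.

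ABC proteins use the energy of ATP to move lipids, bile acids, conjugates, drugs and peptides across membranes. In the liver, members at the canalicular membrane of the hepatocyte form bile, members at the basolateral membrane return conjugates to the blood, and most members of subfamily D supply peroxisomes with fatty acids. Several are also known from blood progenitors, where Abcg2 and the P-glycoproteins Abcb1a and Abcb1b pump out the dyes that are used to mark stem cells. Subfamilies E and F have no membrane part and act in translation.

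The 50 genes lay on 18 chromosomes (GRCm38.p6), and 15 of them formed 5 runs of neighbours with no other protein-coding gene starting in between. These runs were Abca8b, Abca8a, Abca9, Abca6 and Abca5 on chromosome 11 (406 kb), Abca17 and Abca3 on chromosome 17 (146 kb), Abcg5 and Abcg8 on chromosome 17 (42.2 kb), Abcb1a, Abcb1b and Abcb4 on chromosome 5 (392 kb), and Abca14, Abca15 and Abca16 on chromosome 7 (341 kb). Abcg5 and Abcg8 run in opposite directions from starts 109 bases apart. The bases upstream of Abcb11, Abcc2, Abcg5 and Abcg8, which rose from signals at or near background at 1 month, and of the paralogs Abcb1a and Abcb1b, which are set side by side at 5 months, are shown from RefSeq (GRCm38.p6), with the GC box GGGCGG, the TATA box TATAAA, the CCAAT box and the nuclear receptor motif AGGTCA in capitals in either orientation. The lines hold 250 bases before the start of Abcb11 (chr2:69342617-69342866, minus strand), Abcc2 (chr19:43782058-43782307, plus), Abcb1a (chr5:8566841-8567090, plus) and Abcb1b (chr5:8797897-8798146, plus), and all 109 bases between Abcg5 and Abcg8 (chr17:84683012-84683120, plus).
Abcb11: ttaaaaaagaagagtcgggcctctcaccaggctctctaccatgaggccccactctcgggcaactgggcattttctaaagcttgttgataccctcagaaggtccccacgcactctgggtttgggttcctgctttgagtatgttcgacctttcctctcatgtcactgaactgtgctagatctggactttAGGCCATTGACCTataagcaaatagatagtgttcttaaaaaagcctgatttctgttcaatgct
Abcc2: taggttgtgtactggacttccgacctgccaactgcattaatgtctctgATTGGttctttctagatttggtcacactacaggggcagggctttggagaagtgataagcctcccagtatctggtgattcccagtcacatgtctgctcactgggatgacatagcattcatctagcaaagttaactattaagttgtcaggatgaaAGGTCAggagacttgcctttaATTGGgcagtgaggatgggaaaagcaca
Abcb1a: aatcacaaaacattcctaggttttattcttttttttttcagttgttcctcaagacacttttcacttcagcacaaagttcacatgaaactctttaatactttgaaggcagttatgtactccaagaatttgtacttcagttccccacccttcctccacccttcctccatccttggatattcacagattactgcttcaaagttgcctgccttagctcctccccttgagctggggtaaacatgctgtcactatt
Abcb1b: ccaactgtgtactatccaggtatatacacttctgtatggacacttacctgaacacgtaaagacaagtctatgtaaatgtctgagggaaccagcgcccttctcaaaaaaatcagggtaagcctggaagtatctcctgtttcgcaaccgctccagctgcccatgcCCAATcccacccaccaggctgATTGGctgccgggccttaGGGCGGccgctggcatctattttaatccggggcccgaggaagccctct
Abcg5 and Abcg8: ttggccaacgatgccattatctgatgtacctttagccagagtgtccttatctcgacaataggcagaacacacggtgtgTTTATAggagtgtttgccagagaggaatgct

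In the Abcb11 window the capitals mark an inverted repeat of AGGTCA with 1 base between the copies and 1 mismatch, which begins 63 bases before the start and is the form of site known for the bile acid receptor. With 1 mismatch allowed it was found in 26 of 32841 windows of this length (0.0792%) and, of the 45 windows of the 38 members that the table holds, in that of Abcb11 alone. Abca6, Abcb8, Abcc1, Abcc3, Abcc6, Abcc8, Abcd2, Abcd4, Abcg1 and Abcg4 were among the members with no window in the table. GGGCGG stood in 20 of the 45 member windows (32.7% of all windows), CCAAT in 13 (33.9%), AGGTCA in 7 (14% of all) and TATAAA in 5 (12.4%). AGGTCA overlaps the inverted repeat, both strands were searched, and a match of letters is a description and not a binding site. TATAAA lay in the interval between Abcg5 and Abcg8, 31 bases before Abcg8, and reads on the strand of Abcg5. Abcb1b held GGGCGG once and CCAAT at 2 places, while none of these motifs was found in the window of its neighbour Abcb1a.

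The paralogs Abcb1a and Abcb1b, which both encode P-glycoprotein, were told apart on the arrays by probes of 60 bases, and the first 30 bases of each are given because the clearest difference at 5 months rests on them. The Abcb1b probe (chr5:8865925-8865984, mm9) was on both slides, and the Abcb1a probe (chr5:8748075-8748134, mm9) was on the slide of primary and 5-month hepatocytes. How far a probe also binds the RNA of the other paralog was not tested.
Abcb1b probe: tccaggctggagcaaagcgctcatgagctg
Abcb1a probe: actcagacatgggcacctgagttcagatcc

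The arrays were not equally bright, and member probes flagged as well above background were counted on each. On the slide with 87 member probes, the Lin- arrays had 47 and 44 such probes and the 1-month arrays 53 and 54. On the slide with 73 member probes, the primary hepatocyte arrays had 52 and 53 and the 5-month arrays 51 and 50. No spot was saturated, and 1 member spot (Abca17, primary hepatocytes replicate 4) was left out as an outlier. The 1-month arrays were the dimmest, with an upper quartile of the raw signal of 75.5 and 89.5, against 122 to 193 elsewhere. Their lowest log2 signal that counted as above background was -3.41 on both arrays, against -4.44 and -4.50 in Lin- BM cells. Hepatocyte markers such as Alb and Apoa1 were well above background on every hepatocyte array (7 of 7 on one design, 8 of 8 on the other), and 5 of 7, Alb among them, were not in Lin- BM cells. Non-hepatocyte markers were present in all hepatocyte groups. The summed signal of 6 sinusoidal endothelial markers was between 55 and 72.1 times the upper quartile, and that of 8 Kupffer cell markers 11.1 and 42.3 at 1 month, 24 and 50.6 in primary hepatocytes and 102 and 97.8 at 5 months. For 6 leukocyte markers the sums lay between 7.48 and 12.3 in 1-month and primary hepatocytes, at 41.6 and 35.7 at 5 months and at 397 and 247 in Lin- BM cells. At 1 month all 6 endothelial and 5 of 8 Kupffer cell markers were higher than in Lin- BM cells, and their part in the differences of the members was not tested. Of 6 cholangiocyte markers 1 or 2 were well above background on each array, with Krt7, Krt19 and Cldn4 on none, and at 1 month Sox9 was higher and Spp1 lower than in Lin- BM cells. In such bulk samples, fewer cells of a type and less RNA per cell cannot be told apart.

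Most of the family was measurable in hepatocytes. In Lin- BM cells 29 of 50 genes were well above background on both arrays, at 1 month 36, in primary hepatocytes 42 and at 5 months 41, and 26 genes were so in all 4 groups. Abca4, Abca12, Abca15, Abca16 and Abcb5, known from retina, skin, testis and melanocytes, were not above background on any array. Abca13, Abca14 and Abcg3 exceeded it on scattered single arrays, and Abcb1a, Abcc10, Abcc12 and Abca17 on the slide of primary and 5-month hepatocytes, where other probes for them were used. Between Lin- BM cells and 1-month hepatocytes, which share a slide, the net gain lay in subfamily C (5 and 8 of 10 genes), A (7 and 8 of 16), B (7 and 8 of 10), D (3 and 4 of 4) and G (3 and 4 of 6). Abca9 and Abcg4 went the other way, above background on both Lin- arrays and on no 1-month array. Different probes on the other slide detected each of these genes in primary and 5-month hepatocytes.

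**Figure D1:**
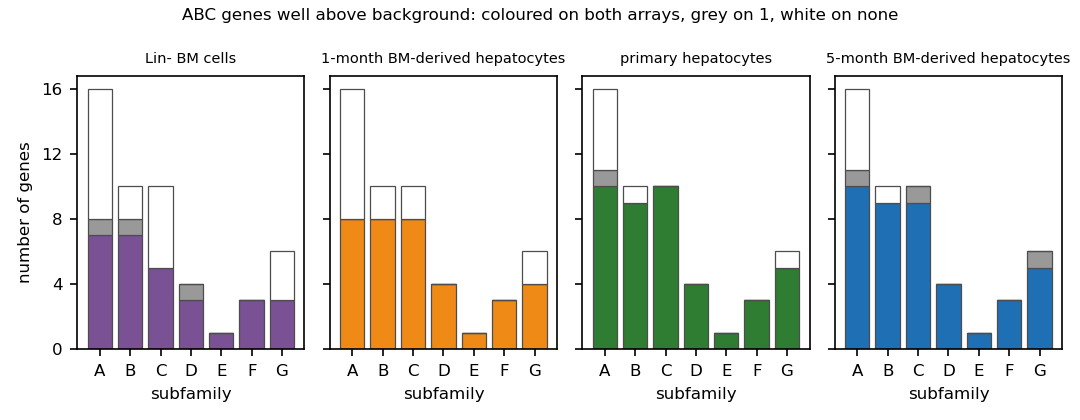
Number of ABC genes (vertical axis) by subfamily A to G (horizontal axis) that were well above background on both arrays (coloured), on 1 array (grey) or on no array (white) of each group. Primary and 5-month hepatocytes were measured with another array design than Lin- BM cells and 1-month hepatocytes. Subfamily A had 7 to 10 of 16 genes on both arrays of a group.

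One month after transplantation, more members were higher than lower against Lin- BM cells, with Abcb11, Abcc2, Abcc3 and Abcg5 among the higher and Abca7, Abcc1, Abcc5 and Abcg4 among the lower. This comparison sets the sorted cells against the cell type that was transplanted, and both groups lie on the same slide. Of 38 members tested, 20 were higher and 8 lower (limma, called where the Benjamini-Hochberg adjusted p was under 0.05 and the log2 change passed 0.6, the size limit of the methods). The background is wide, since 55.3% of all 28522 genes were called (28.8% higher and 26.5% lower), and the median change was 1.79 for the members and 0.07 for all genes. A member that passed the filter on dim signals only through the group where it is high had to differ, and among the 27 members well above background on all 4 arrays 11 were higher and 6 lower (34.4% and 22.9% of all 21135 such genes). Higher calls made up 52.1% of all calls, and 62.7% with another background correction (normexp), which moved the median of all genes to 0.36. By subfamily, 6 genes were higher and 2 lower of 9 tested in A, 3 and 1 of 8 in B, 5 and 2 of 8 in C, 3 and 0 of 4 in D, 0 and 1 of 3 in F, and 3 and 2 of 5 in G.

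**Figure D2:**
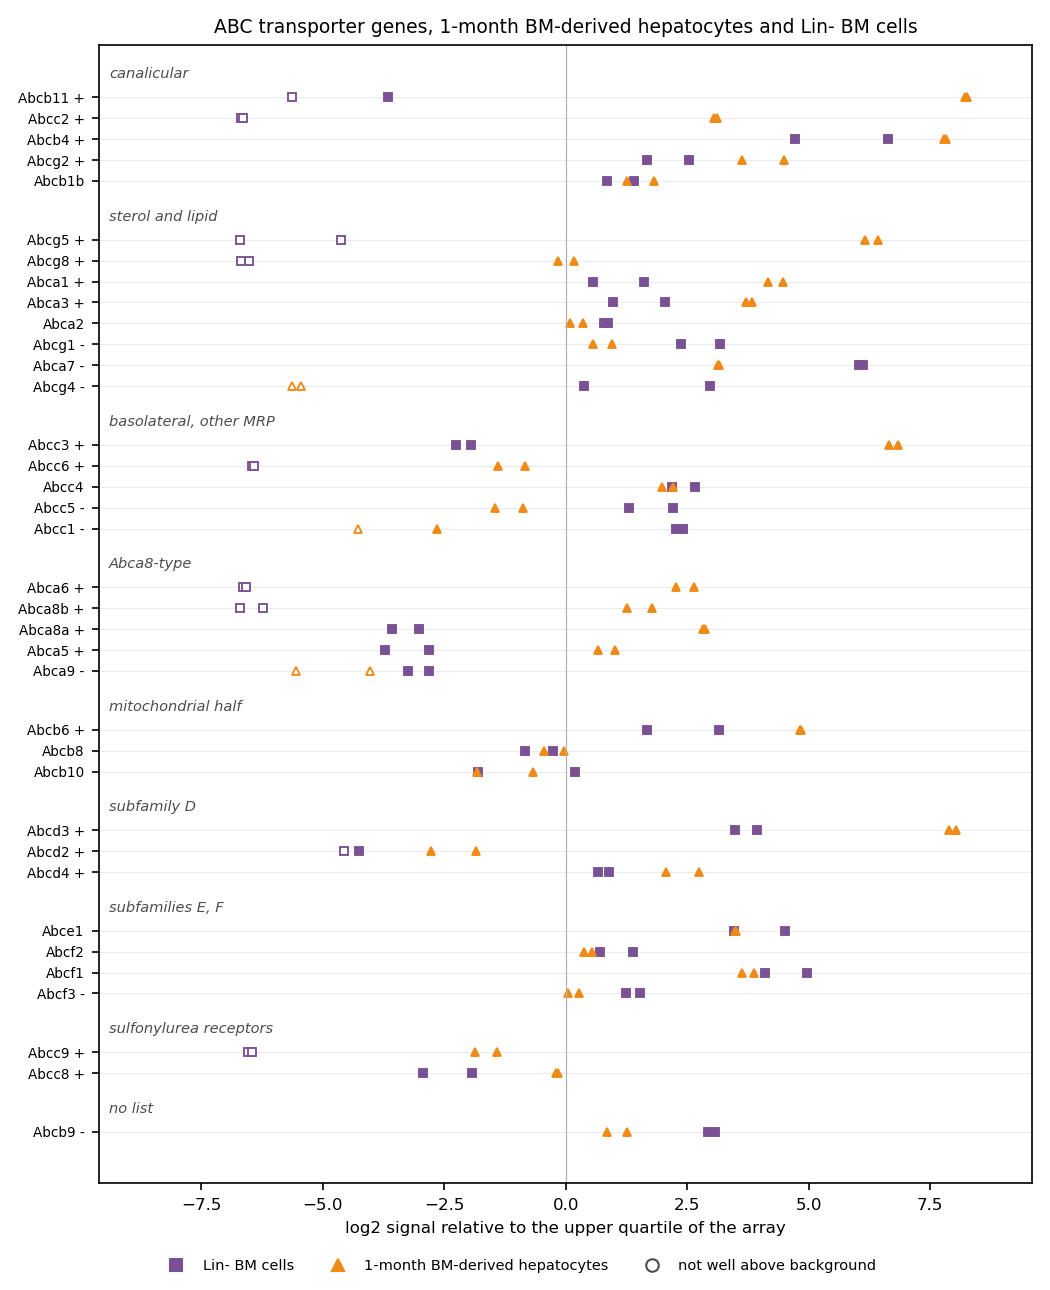
Log2 signal relative to the upper quartile of the array (horizontal axis) of 36 of the 38 ABC genes tested in Lin- BM cells (squares, 2 arrays) and 1-month BM-derived hepatocytes (triangles, 2 arrays), grouped by role. Open symbols were not well above background, and + or - after a name marks a gene called higher or lower at 1 month. The 1-month arrays lie far to the right of the Lin- arrays for Abcb11 (8.26 and 8.22 against -3.66 and -5.63) and to their left for Abcc1 (-4.28 and -2.66 against 2.28 and 2.42).

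Of the 6 canalicular exporters, 4 were called higher at 1 month. Abcb11, the bile salt export pump, gave -3.66 and -5.63 in Lin- BM cells, the latter not above background, and 8.26 and 8.22 at 1 month. The groups lay far apart, and the log2 change was 12.88 (SE 0.68, n = 2, adjusted p = 3.29e-04). Abcc2, which exports bilirubin glucuronides and glutathione conjugates, was not above background in Lin- BM cells (-6.69 and -6.65) and reached 3.12 and 3.06. It was at least 189-fold higher, a bound set against the lowest signal that counts as above background (adjusted p = 6.4e-05). Genes given with such a bound, here and below, passed the filter through 1 group alone and so had to differ. Their adjusted p comes from the signals as read, those at background included, and not from the bound. The probes used for Abcb11, Abcd2 and Abcc1 also passed the filter through 1 group alone and so had to differ. Each was above background on 1 array of the dimmer group, and no bound is given. Abcb4, the phosphatidylcholine flippase of the canaliculus, already had a strong signal in Lin- BM cells (4.72 and 6.63). It rose to 7.78 and 7.83 (log2 change 2.13, SE 0.66, adjusted p = 0.0447). A second Abcb4 probe changed by 1.70 and was not called (limma adjusted p = 0.108). The Abcb4 call was lost without 1-month replicate 1 or 2. It was also lost with normexp, with quantile normalization, without the filter and with the mean of the probes. Abcg2, the breast cancer resistance protein, went from 1.67 and 2.55 to 3.63 and 4.50 (log2 change 1.96, SE 0.47, adjusted p = 0.0215). Its call was lost without Lin- replicate 3 (adjusted p = 0.0848) or 1-month replicate 2 (0.0947). Abcb1b overlapped between the groups, with 1.40 and 0.86 against 1.26 and 1.81 (log2 change 0.41, 95% interval -0.51 to 1.32), although a second probe was called higher by 1.66. Abcb1a was not above background on this slide.

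Among 8 sterol and lipid exporters, 4 rose and 3 fell. Abcg5 and Abcg8, whose products form the dimer that secretes sterols into bile, rose together from background. Abcg5 gave -4.62 and -6.70 in Lin- BM cells and 6.17 and 6.43 at 1 month, at least 1740-fold higher (adjusted p = 4.46e-04). Abcg8 gave -6.67 and -6.52 and then -0.15 and 0.16, at least 22.2-fold higher (adjusted p = 1.85e-04), and a second Abcg8 probe rose by 3.60. Abca1, which loads cholesterol onto apolipoprotein A-I, went from 1.62 and 0.56 to 4.47 and 4.18 (log2 change 3.23, SE 0.43, adjusted p = 0.00399). Abca3, a phospholipid transporter known from the lamellar bodies of lung, went from 0.96 and 2.04 to 3.70 and 3.83 (log2 change 2.27, SE 0.43, adjusted p = 0.0107), and 2 further probes rose as well. Without 1-month replicate 1 or 2 its adjusted p was 0.0526 and 0.0589. The lipid transporter Abca7 fell evenly from 6.04 and 6.11 to 3.15 and 3.13 (log2 change -2.94, SE 0.25, adjusted p = 0.00122). Abcg1, which passes cholesterol to HDL in macrophages and other cells, fell from 3.17 and 2.37 to 0.57 and 0.96 (log2 change -2.01, SE 0.38, adjusted p = 0.0108, 0.0612 without 1-month replicate 1). Its close relative Abcg4 gave 0.38 and 2.96 in Lin- BM cells and was not above background at 1 month (-5.46 and -5.64), at least 33.7-fold lower (adjusted p = 0.00295). The Abcg4 call rests on 1 probe, whose sequence is not on the other slide. There, a different Abcg4 probe detected the gene in primary (-0.34 and -1.12) and 5-month hepatocytes (0.12 and 0.34). The remaining Abcg4 probes of that slide stayed at background. Whether the fall belongs to the gene or to its probe was not tested. Abca2, an endolysosomal lipid transporter, gave 0.88 and 0.78 against 0.36 and 0.10 and was not called (log2 change -0.60, 95% interval -1.29 to 0.09).

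The multidrug resistance-associated exporters (MRPs) of subfamily C divided, with 2 of 5 tested higher and 2 lower. Abcc3, the basolateral exporter of glucuronides, went from -2.26 and -1.94 to 6.84 and 6.66, a log2 change of 8.85 (SE 0.28, adjusted p = 8.71e-05). A second Abcc3 probe rose by less, 4.76 (SE 0.39). Abcc6, which acts in the release of ATP from hepatocytes, was at background in Lin- BM cells (-6.47 and -6.41) and gave -0.83 and -1.40 at 1 month, at least 10.2-fold higher (adjusted p = 4.28e-04). In the other direction, Abcc1 (MRP1) had 2.28 and 2.42 in Lin- BM cells against -4.28 and -2.66, of which the first was not above background. Its log2 change was -5.82 (SE 0.58, adjusted p = 0.00175), and its other 2 probes fell by 5.09 and 3.91. Abcc5, an exporter of cyclic nucleotides, fell from 1.30 and 2.22 to -1.46 and -0.87 (log2 change -2.93, SE 0.43, adjusted p = 0.00522), also on both of its other probes. Abcc4, the basolateral MRP4, overlapped between the groups, with 2.18 and 2.66 against 1.98 and 2.21 (log2 change -0.32, 95% interval -1.11 to 0.46). The falls of Abcc1, Abcc5, Abcg1, Abcg4 and Abca7 went with a fall of all 6 leukocyte and all 6 Lin- progenitor markers, whose sums were 397 and 247 against 9.69 and 12.3 for leukocytes and 595 and 538 against 3.7 and 6.11 for progenitors. The part of these cells in the result was not tested.

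In the cluster of Abca8-type genes on chromosome 11, 4 of 5 neighbours rose. The function of these subfamily A transporters, which are known from liver and muscle, is less settled. Abca6 gave -6.64 and -6.59 in Lin- BM cells, not above background, and 2.63 and 2.26 at 1 month, at least 121-fold higher (adjusted p = 8.26e-05). Abca8b gave -6.70 and -6.23, also at background, and then 1.78 and 1.25, at least 63.3-fold higher (adjusted p = 1.94e-04). For Abca8a the signal went from -3.57 and -3.02 to 2.87 and 2.82 (log2 change 6.14, SE 0.31, adjusted p = 2.92e-04). Abca5 went from -3.72 and -2.82 to 1.01 and 0.66 (log2 change 4.10, SE 0.40, adjusted p = 0.00165). The middle gene of the run, Abca9, ran the other way at low signal, from -3.25 and -2.81 to -5.56 and -4.02, not above background at 1 month and at least 1.3-fold lower (adjusted p = 0.0498). That call is not stable, as its log2 change was 0.41 with normexp background correction, and its adjusted p was 0.116 and 0.187 without Lin- replicate 3 or 4 and 0.128 without 1-month replicate 1.

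In subfamily D 3 of 4 members rose, and of the 4 mitochondrial transporters 1 rose. Abcd3, the main peroxisomal membrane transporter of branched fatty acids and bile acid precursors, went from 3.49 and 3.94 to 7.90 and 8.03 (log2 change 4.25, SE 0.29, adjusted p = 6.66e-04), and its 2 weaker probes rose by 4.88 and 4.72. The peroxisomal fatty acid transporter Abcd2 gave -4.25 and -4.57, the latter not above background, and then -1.85 and -2.76 (log2 change 2.11, SE 0.40, adjusted p = 0.0109, 0.0574 without Lin- replicate 4). Abcd4, which acts in the lysosomal release of cobalamin, went from 0.90 and 0.67 to 2.74 and 2.07 (log2 change 1.62, SE 0.34, adjusted p = 0.0143), and its call was lost without Lin- replicate 4 (0.0655) or 1-month replicate 1 (0.0648). All 10 listed peroxisomal partners were higher, led by the acyl-CoA oxidase Acox2 (at least 915-fold) and the thiolase Acaa1b (log2 change 6.69). Of the mitochondrial transporters, Abcb6, a porphyrin transporter, rose from 1.66 and 3.15 to 4.82 and 4.85 (log2 change 2.43, SE 0.54, adjusted p = 0.0169). Without 1-month replicate 1 or 2 its adjusted p was 0.0747 and 0.0762. Abcb8, and Abcb10, which serves heme synthesis, overlapped between the groups with log2 changes of 0.30 and -0.45. The 10 listed iron-sulfur assembly genes held 1 higher (Iscu, log2 change 1.24) and 1 lower (Hscb, -1.71).

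Of the 4 soluble members that act in translation 1 was called, and lower. Abcf3 fell from 1.53 and 1.23 to 0.27 and 0.05 (log2 change -1.22, SE 0.28, adjusted p = 0.0186), but its second probe pointed the other way (0.87, not called) and the mean of both probes gave -0.18. Its adjusted p was between 0.0636 and 0.092 without Lin- replicate 3 or either 1-month replicate. Abce1, the ribosome recycling factor, gave 3.47 and 4.51 against 3.48 and 3.51 (log2 change -0.49, not called), while its second probe was called lower by 1.67. Abcf1 and Abcf2 were not called, at -0.79 and -0.59. Both sulfonylurea receptors, which are subunits of potassium channels and do not transport by themselves, were higher. Abcc8 went from -2.94 and -1.93 to -0.19 and -0.15 (log2 change 2.27, SE 0.41, adjusted p = 0.00947, and 0.0506 and 0.0527 without 1-month replicate 1 or 2). Abcc9 was at background in Lin- BM cells (-6.55 and -6.45) and gave -1.40 and -1.86, at least 7.15-fold higher (adjusted p = 4.56e-04). It is also known from vascular mural cells, and of 5 stellate and mural markers tested 3 were higher (Rgs5 at least 81.1-fold, Lrat at least 12-fold and Reln by a log2 change of 2.83), Pdgfrb was lower (-4.09) and Dcn was not called. Their part in the result was not tested. Abcb9, a lysosomal peptide transporter, fell from 3.07 and 2.94 to 1.26 and 0.86 (log2 change -1.95, SE 0.29, adjusted p = 0.00523).

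The partners of the canalicular members rose in most cases. All 10 hepatocyte uptake carriers were higher at 1 month, led by Slco1b2 (at least 15250-fold), Slc47a1 (at least 2139-fold) and Slc27a5 (log2 change 12.56). Of 9 tested partners and scaffold proteins of the canaliculus 8 were higher, Pdzk1 by 8.62 and the motor protein Myo5b by 6.28 among them, whereas the membrane linker Ezr, which blood cells use, fell by 6.09. Of 13 nuclear receptors and factors known to control ABC genes 10 were higher. Among them were the bile acid receptor Nr1h4 (at least 848-fold) and Ppara (at least 579-fold). Nr1h2, Nfe2l2 and Srebf2 were not called.

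Between 5-month and primary hepatocytes 1 member of the family was called different. This comparison asks how far the donor-derived cells resemble the resident ones, and it too lies within a slide. Of 42 members tested none was higher and 1 was lower, against 0.552% of all 19929 genes (0.366% higher and 0.186% lower). At an unadjusted p under 0.05 there were 11 members and 2817 genes, and the median change was 0.20 for the members and 0.04 for all genes. With 2 arrays a group a missing call does not show that levels were equal, and the single intervals below give what was measured. Among the pathway partners, none of 10 uptake carriers, 10 canalicular partners, 13 receptors and factors, 10 peroxisomal and 10 iron-sulfur genes was called either.

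That member was Abcb1b, which had 1 probe on this slide. Primary hepatocytes gave 1.92 and 1.70 and 5-month hepatocytes -2.28 and -2.83, all 4 arrays well above background. The groups did not overlap, and the log2 change was -4.36 (SE 0.28, n = 2, adjusted p = 0.0269, limma). Its paralog Abcb1a overlapped between the groups, with -0.77 and -0.10 against -0.47 and -0.31 (log2 change 0.05, 95% interval -0.76 to 0.86). Abcb4, the next gene of the same run on chromosome 5, gave 7.44 and 8.25 against 8.31 and 8.41 (log2 change 0.52, not called). On the other slide the same Abcb1b sequence changed by 0.41 at 1 month against Lin- BM cells (not called). Another Abcb1b probe there changed by 1.66 (called higher). Whether the difference at 5 months belongs to the gene or to its probe was not tested. The Abcb1b call was lost with 1 array of the 5-month group, where no gene at all was called (adjusted p = 0.4 without replicate 1 and 0.474 without replicate 3), and its log2 change was then -4.64 and -4.09. Kupffer cell and leukocyte marker sums were higher at 5 months than in primary hepatocytes (102 and 97.8 against 24 and 50.6 for Kupffer cells), with 0 of 8 and 0 of 6 markers called. Their part in the result was not tested.

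**Figure D3:**
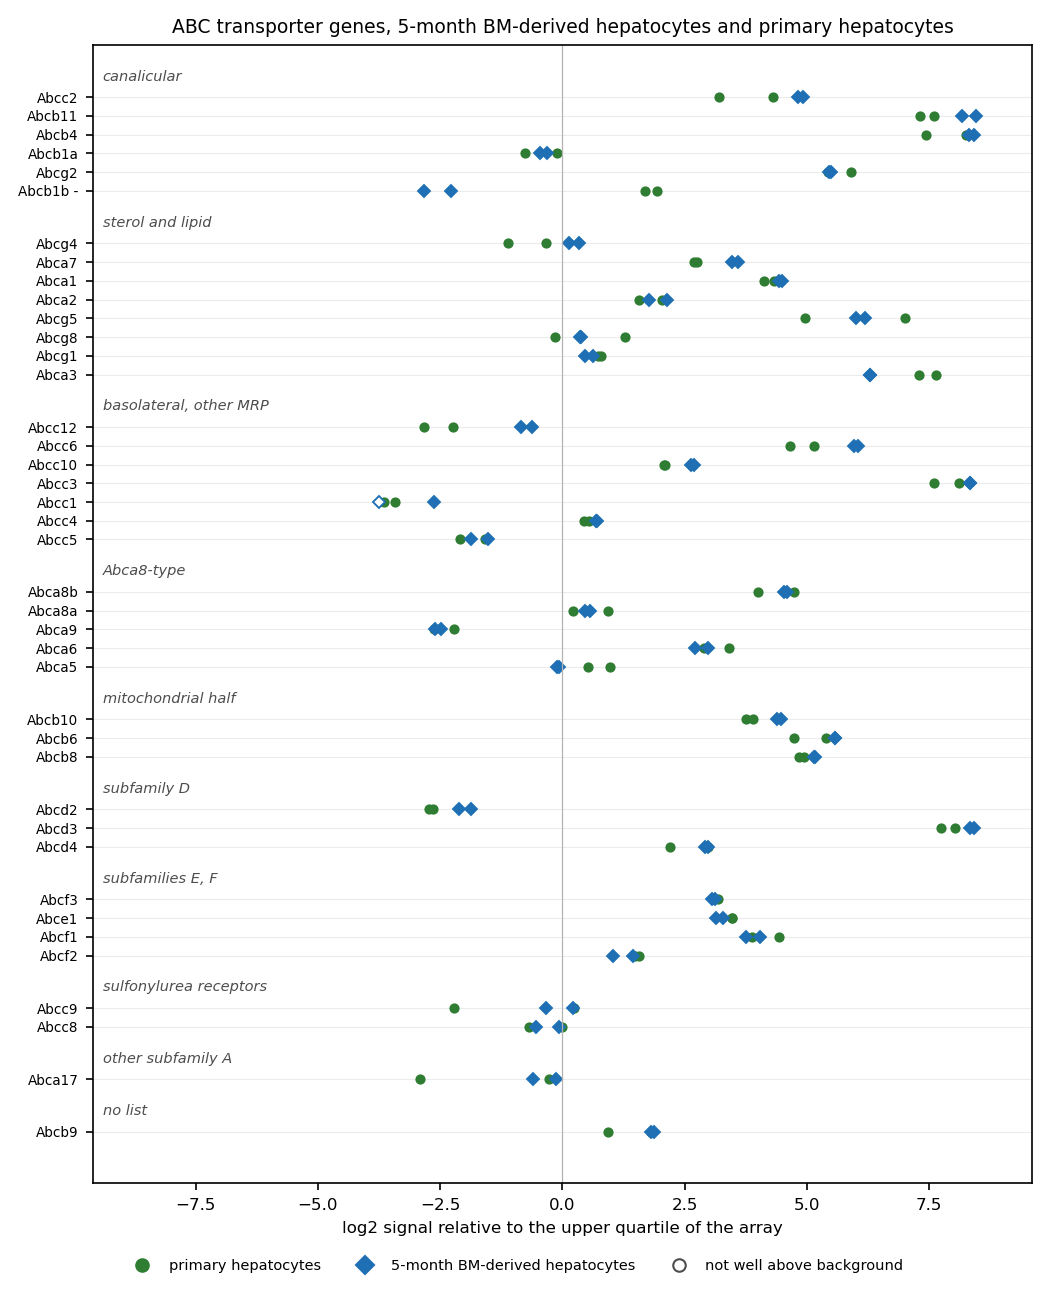
Log2 signal relative to the upper quartile of the array (horizontal axis) of 40 of the 42 ABC genes tested in primary hepatocytes (circles, 2 arrays) and 5-month BM-derived hepatocytes (diamonds, 2 arrays), grouped by role. Open symbols were not well above background, and - after a name marks the gene called lower at 5 months. Abcb1b is the gene called, at 1.92 and 1.70 against -2.28 and -2.83.

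The next largest differences at 5 months were not called. Abcc12, a subfamily C member of little known function, gave -2.83 and -2.24 in primary hepatocytes and -0.63 and -0.85 at 5 months (log2 change 1.80, adjusted p = 0.121), and a second probe differed by 1.92. Abca17 gave -2.92 and -0.27 against -0.59 and -0.14 and overlapped (log2 change 1.23). Abcc6 gave 4.64 and 5.13 against 6.04 and 5.97 (log2 change 1.12, adjusted p = 0.205), and Abcc2 gave 3.21 and 4.30 against 4.91 and 4.82 (1.11, adjusted p = 0.358). These 2 exporters did not overlap between the groups, which held for 24 of the 42 members and for 47.9% of all genes. Abcg4 gave -0.34 and -1.12 against 0.12 and 0.34 (log2 change 0.97). Below primary hepatocytes lay Abca3, with 7.63 and 7.30 against 6.29 on both 5-month arrays (log2 change -1.17, adjusted p = 0.156), and Abca5, with 0.97 and 0.52 against -0.06 and -0.10 (-0.83, adjusted p = 0.285). A second Abca5 probe fell below background at 5 months, from -0.32 and -2.06 to -4.49 and -3.61, without passing the test (adjusted p = 0.195).

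Of the 6 canalicular exporters Abcb1b was the 1 called between 5-month and primary hepatocytes. Abcb11 gave 7.59 and 7.32 in primary hepatocytes and 8.17 and 8.45 at 5 months (log2 change 0.86, 95% interval 0.23 to 1.49, adjusted p = 0.26). Abcg5 gave 5.99 ± 1.44 against 6.09 ± 0.13 (mean and SD, n = 2), and Abcg8 -0.15 and 1.28 against 0.38 and 0.36, and both overlapped. Abcc3 gave 7.60 and 8.10 against 8.32 and 8.33 (log2 change 0.48, not called) and Abcd3 7.73 and 8.04 against 8.33 and 8.41 (0.49, not called). The 2 primary arrays differed from each other by more than the 5-month arrays did for each of these genes except Abcb11. Abcg1, lower at 1 month than in Lin- BM cells, was even across the slide, with 0.73 and 0.79 against 0.61 and 0.45. Abca7 was slightly above primary hepatocytes, with 2.76 and 2.69 against 3.48 and 3.59 (log2 change 0.81, adjusted p = 0.228).

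Across the slides only the shared probes could be used, on a scale of their own, and slide, array design and scan day cannot be told apart from group. Against Lin- BM cells, primary hepatocytes had 11 of 24 members higher and 6 lower (68.3% of 9061 genes called, 29.6% higher and 38.6% lower), and 5-month hepatocytes 11 higher and 8 lower (67.9% of 9054 genes, 29.5% and 38.4%). The median of all genes was -0.31 and -0.33 in these comparisons and 0.06 and 0.07 with normexp background correction. Both comparisons share the Lin- arrays, so their values are given side by side. Abcc2 was at least 253-fold higher in primary and at least 562-fold higher in 5-month hepatocytes, Abca6 at least 167-fold and 139-fold, and Abcg8 at least 27.7-fold and 24.9-fold. Abcd3 differed by 3.93 and 4.46, Abca5 by 3.78 and 2.99, Abca1 by 2.90 and 3.16, Abcb6 by 2.42 and 2.97, and Abcb4 by 1.92 and 2.48. The smaller differences were those of Abcd2 (1.49 and 2.22), Abcd4 (1.56 and 1.97) and Abca2 (0.72 and 0.91). In the other direction lay Abcc1 (-6.13 and -5.73), Abcc5 (-3.84 and -3.66), Abca7 (-3.59 and -2.74), Abcg1 (-2.25 and -2.44), Abcc4 (-2.16 and -1.92) and Abcb9 (-1.87 and -1.36). Abcb1b was called lower in the 5-month comparison (-3.88, SE 0.36, adjusted p = 1.4e-04) and differed by 0.44 in primary hepatocytes (not called), and Abce1 was called lower at 5 months (-0.97) and differed by -0.77 in primary hepatocytes. The calls of Abca2 in primary hepatocytes (adjusted p = 0.0584 and 0.14 without Lin- replicate 3 or 4, 0.193 without primary replicate 2) and at 5 months (0.0724 without Lin- replicate 4, 0.113 without 5-month replicate 3) depended on single arrays. So did those of Abcb4 in primary hepatocytes (adjusted p = 0.0625 without Lin- replicate 3, 0.108 without primary replicate 4), of Abcb9 at 5 months (0.0511 to 0.0532 without Lin- replicate 3 or either 5-month replicate) and of Abce1 (0.087 without Lin- replicate 4, 0.118 and 0.0932 without 5-month replicate 1 or 3).

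The probe of Abcb1b stayed between -0.66 and 0.42 outside the 5-month group. On the shared scale it read 0.03 and -0.66 in Lin- BM cells, -0.18 and 0.42 at 1 month, 0.22 and 0.03 in primary hepatocytes, and -3.90 and -4.50 at 5 months. Against 1-month hepatocytes its log2 change at 5 months was -4.32 (SE 0.36, adjusted p = 0.00134). The low signal lay on both 5-month arrays, while the primary hepatocyte arrays of the same slide read within the range of the first slide.

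**Figure D4:**
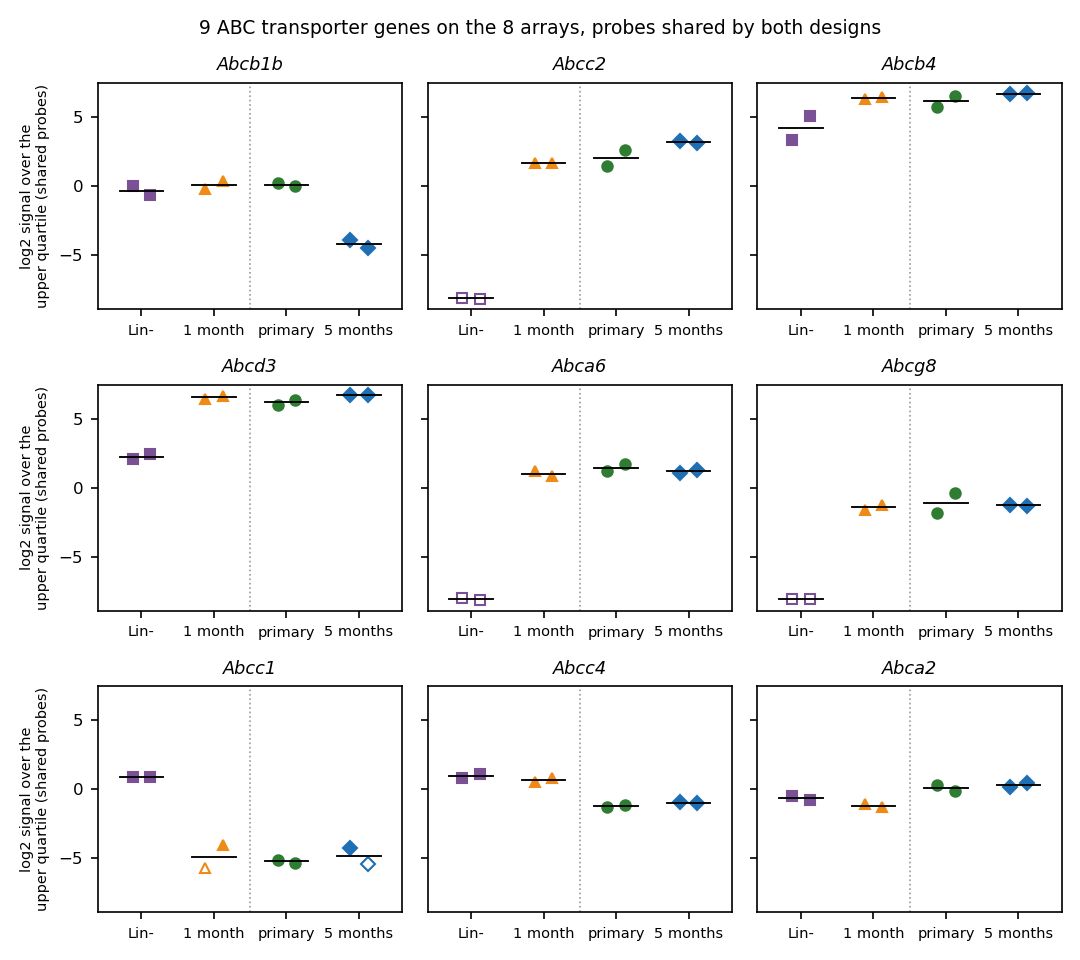
Log2 signal over the upper quartile of the shared probes (vertical axis) for 9 ABC genes on 2 arrays each of Lin- BM cells (squares), 1-month hepatocytes (triangles), primary hepatocytes (circles) and 5-month hepatocytes (diamonds). Open symbols were not well above background, horizontal lines are group means, and the dotted line separates the slides. Abcb1b is low at 5 months alone, whereas Abcc4 and Abca2 split at the dotted line.

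Set against primary hepatocytes, the 1-month cells had 1 of 24 members higher and 1 lower (17.7% of 8004 genes called, 11.0% higher and 6.66% lower). Of all calls 62.3% were higher, and 50.7% with quantile normalization and 42.7% with the 75th percentile over all probes of each design. Abcc4 was the higher one (log2 change 1.87, SE 0.22, adjusted p = 0.00335) and Abca2 the lower (-1.30, SE 0.25, adjusted p = 0.0163). Both follow the slide. Abcc4 read 0.81 and 1.14 in Lin- BM cells and 0.54 and 0.82 at 1 month on one slide, and -1.26 and -1.12 in primary and -0.92 and -0.99 in 5-month hepatocytes on the other. Abca2 read -0.49 and -0.74, -1.08 and -1.29, then 0.33 and -0.11, and 0.14 and 0.46 in the same order. Without 1-month replicate 1 or 2 or primary replicate 2 the adjusted p of Abca2 was 0.052, 0.0937 and 0.0706.

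From 1 month to 5 months 2 of 23 members were higher and 3 lower (20.9% of 8004 genes called, 7.98% higher and 12.9% lower). The share of higher calls was 38.3%, and 56.8% with the 75th percentile over all probes of each design. Abcc2 read 1.67 on both 1-month arrays, 1.50 and 2.63 in primary hepatocytes and 3.29 and 3.15 at 5 months (log2 change from 1 month 1.54, SE 0.36, adjusted p = 0.0294). Abca5 read -0.44 and -0.74 at 1 month, -0.73 and -1.15 in primary hepatocytes and -1.69 and -1.77 at 5 months (-1.14, SE 0.31, adjusted p = 0.0446). The other calls were Abcb1b, Abca2 (1.49, adjusted p = 0.011) and Abcc4 (-1.63, adjusted p = 0.00561). Leaving out any 1 of the 4 arrays ended the calls of Abcc2 (adjusted p 0.0975 to 0.145) and Abca5 (0.113 to 0.205). The call of Abca2 was lost without 1-month replicate 2 or either 5-month replicate (0.0554 to 0.0875), and that of Abcc4 without 5-month replicate 3 (0.0501). For Abcb11, Abcg5, Abcc3 and the remaining members no test across the slides was made, for want of a shared probe or of signal above background.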

How the data were processed

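RNA was labelled with Cy3 by oligo-dT amplification and hybridised to 1-colour Agilent arrays, 2 per group, which the authors read with Feature Extraction 11.5.1.1. The deposited scanner files give the intensity of each spot, corrected for background, with flags for signal well above background. The deposited value table holds the authors' log2 values after a shift to the 75th percentile, and served as an alternative. No column of per-sample values was left unmapped.

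From the processed intensities, log2 values were taken relative to the 75th percentile of each array, over all probes within a slide and over the 13991 shared sequences across slides. A probe was kept if well above background on both arrays of a compared group, the brightest probe stood for its gene, and limma 3.58.1 (R 4.3.3) was fitted over all genes with Benjamini-Hochberg adjustment. Genes past an adjusted p of 0.05 whose log2 change also passed 0.6 were counted as called. Where no array of a group was above background, a fold is given as a bound, the mean of the brighter group against the higher of the lowest detected signal of the array, over all its probes, and the probe's own signal. The bounds hold for this processing alone. Under the alternatives the log2 change at 1 month against Lin- BM cells went as low as 1.49 for Abcc6, 4.54 for Abcc2 and 2.05 for Abcg8. It went as low as 7.59 for Abcg5, 3.92 for Abca6, 3.13 for Abca8b and 1.24 for Abcc9. The fall of Abcg4 shrank to -2.76, and that of Abca9 turned to 0.41. All these values fall short of the bounds given for these genes. The scripts were tested on simulated data. The study counts 2 experiments for its arrays, each of cells pooled from several mice, while the labels give replicate numbers alone. The p-values rest on the spread between the arrays of a group, which limma moderates by the spread of all genes. Across slides 1 spread was pooled over all 8 arrays. The number of arrays limits the precision, and an exact 2-sided permutation test of 2 against 2 arrays cannot go below p = 0.33.

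All 50 members enter the counts, and the text names those called, the 5 largest changes in each direction at 5 months and the members of the role lists, except that a few genes are not reported here by name or in the plots. The members and lists were chosen with earlier results of these data known. Alternatives were the background correction (normexp, offset 50), the normalization, the filter, the probe rule, the methods' t-test and leaving out each array. Promoter sequences came from RefSeq (GRCm38.p6).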

Additional observations from a re-analysis of the deposited data

Results flagged for a closer look

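For 5 members the difference from Lin- BM cells was not alike at 1 month and 5 months, by the test of 5-month against 1-month hepatocytes with the shared probes. The log2 difference was -4.32 for Abcb1b, 1.54 for Abcc2, 1.49 for Abca2, -1.14 for Abca5 and -1.63 for Abcc4. The groups lie on different slides, and slide and group cannot be told apart. For Abcb1b the 5-month arrays also differed from the primary hepatocytes of their own slide, while Abcc4 and Abca2 differed between the slides in both groups of each. Only Abcb1b kept its call when each of the 4 arrays was left out.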

How the results depend on the processing

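No paired analysis was possible because the groups compared share fewer than 2 replicate numbers. The slide could not be used as a block, since within a slide it changes nothing and across slides it coincides with the groups. Over 72 member results and 1018 alternative values, 897 kept direction and side of the threshold, 120 lost the call and 1 turned, Abca9 at 1 month against Lin- BM cells (0.41 with normexp). Calls that held under every alternative run were 12 of 28 for 1 month against Lin- BM cells, 9 of 17 for primary and 12 of 19 for 5-month hepatocytes against Lin- BM cells, and 0 in the other 3 comparisons. Of these at 1 month, Abca6, Abca8b, Abcb11, Abcc2, Abcc6, Abcc9, Abcg5 and Abcg8 passed the filter through 1 group alone and had to differ. The others were Abca7, Abca8a, Abcc3 and Abcd3. Across slides Abca6, Abcc2 and Abcg8, and at 5 months also Abcd2 and Abcc1, passed through 1 group alone. An alternative whose filter or probe set left a member out was not counted for it. At 1 month Abcb11 and Abcc6 were thus judged on 12 alternatives, Abcc2 on 13 and Abca7 on 14. Members not above background on both Lin- arrays were not tested where every array had to be. For 1 month against Lin- BM cells the 20 members higher became 11 when every array had to be above background, 11 with the methods' t-test after Benjamini-Hochberg and 10 with shared probes, and 15 to 19 without 1 array, and the 8 lower became 1 with that t-test, 5 with shared probes and 5 to 8 without 1 array. For 5 months against primary hepatocytes the 0 higher and 1 lower became 6 and 2 with the t-test unadjusted, 0 lower after adjustment, and 0 to 4 higher and 0 to 1 lower without 1 array. Against Lin- BM cells, the 11 higher in primary hepatocytes became 7 with every array above background, 7 with the t-test unadjusted and 5 adjusted, and 9 to 12 without 1 array, and the 11 higher at 5 months became 7 with every array above background and 7 with the adjusted t-test. For 1 month against primary hepatocytes the 1 higher became 4 with normexp, 2 without filter, 2 with a trended variance, 2 with the t-test unadjusted and 0 adjusted, and the 1 lower became 2 with the percentile over all probes of each design, 2 with the t-test unadjusted, 0 adjusted, 0 with the 2 groups alone and 0 to 1 without 1 array. For 5 months against 1 month the 2 higher and 3 lower became 0 and 0 with the adjusted t-test, and 0 to 1 and 1 to 2 without 1 array. Over all genes, the 15777 calls at 1 month against Lin- BM cells became 26462 without filter and 4566 with the adjusted t-test, and the 110 calls at 5 months against primary hepatocytes became 38 without filter, 47 with every array above background, 1363 with the t-test unadjusted and 0 adjusted, and 0 to 1396 without 1 array. The adjusted t-test also gave 2560 for 6188 and 3381 for 6148 calls in primary and 5-month hepatocytes against Lin- BM cells, 2 for 1414 at 1 month against primary hepatocytes and 14 for 1669 at 5 months against 1 month. For those last comparisons the calls without 1 array were 661 to 1018 and 395 to 942, and the 1414 became 4036 without filter and 777 with the 2 groups alone. The cause was not tested. Signals near background limit the bounds, most at 1 month, where the raw signal was weakest.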

Other observations

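ABC proteins under other symbols were not members. The peptide transporter genes Tap1 and Tap2, which supply MHC class I molecules, were lower at 1 month than in Lin- BM cells by log2 changes of -2.16 and -1.78, while their partner Tapbp gave 0.12 and was not called. Among the members seen on single arrays, Abca13 reached -3.16 on 1 Lin- array and Abcg3 -3.37 on 1 array of 5-month hepatocytes.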
